A study of Mus musculus with 9 samples.

Results

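The S100 genes encode small calcium-binding proteins, and 8 of them, S100a1, S100a4, S100a6, S100a8, S100a9, S100a10, S100a11 and S100a13, were followed here out of the 55274 gene identifiers measured in each library. They were taken by name, as the rows of the expression tables carrying these symbols, and the family was chosen with earlier results of these data known. RNA-seq was performed on bone marrow cells of female C57BL/6J mice, bought at 6 to 8 weeks of age, harvested 4 days after an injection of 5-fluorouracil at 150 mg/kg. The cells were stimulated for 48 h with human IL-6, mouse IL-3 and mouse SCF, transduced with retroviral vectors, sorted by fluorochrome and expanded in vitro. The 3 groups sequenced had 3 libraries each. NRASG12D cells carried an NRAS protein locked in its active state by a point mutation, expressed with BFP. NUP98-NSD1 cells carried the fusion of a nuclear pore protein with a histone methyltransferase, expressed with GFP. NUP98-NSD1+NRASG12D cells carried both vectors. Both transgenes were driven by the strong viral promoter of the MSCV vectors, and no library of cells with empty vectors was analysed here. The labels do not say whether the replicates came from separate mice or cultures, so p-values measure only the spread between these samples, which may be technical.

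Most S100 proteins form dimers, bind calcium through paired EF-hand loops and, once loaded, expose a surface that docks onto other proteins. S100a8 and S100a9 pair with each other to form calprotectin, which neutrophils and monocytes make in large amounts and release during inflammation, where it is sensed by Toll-like receptor 4. S100a4, S100a6, S100a10, S100a11, S100a13 and S100a1 are found in many cell types and act mainly on partners inside the cell.

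All 8 genes lie on chromosome 3 (GRCm38). S100a1 (90511034 to 90514392, minus strand) and S100a13 (90514435 to 90524581, plus strand) stand head to head, 42 bp apart. They are followed by S100a4 (90603771 to 90606045, plus strand), S100a6 (90612882 to 90624181, plus strand), S100a8 (90668978 to 90670035, plus strand) and S100a9 (90692632 to 90695721, minus strand), so that these 6 genes fill 184.7 kb. S100a11 (93520488 to 93526287, plus strand) and S100a10 (93555080 to 93564643, plus strand) form a second pair that begins 2825 kb further on. Between the outermost members lay 113 other genes, of which 10 were expressed highly enough to be tested. None of those 10 separated the groups without overlap in every comparison. Several did separate NRASG12D cells from both groups carrying the fusion gene, but none separated the latter from each other. Of all tested genes, 64.2% separated NRASG12D from NUP98-NSD1 cells without overlap. With both transgenes the share was 58.6% against NRASG12D cells and 31.4% against NUP98-NSD1 cells.

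Promoter windows from RefSeq (GRCm38.p6), which run from 250 bases before to 50 bases after the transcription start, matched 7 of the 8 genes, all but S100a10. The 4 windows printed here belong to the genes whose levels rose stepwise over the 3 groups without overlap, as described further on (4 of 8 members, against 8.38% of all tested genes), and are read 5′ to 3′ on the strand of the gene. Capitals mark matches, on either strand, to TTNNGNAA (the core bound by C/EBP factors), GAGGAAG (PU.1) or TGANTCA (AP-1), and no matches overlapped.
S100a8, chr3:90668821-90669120, plus strand: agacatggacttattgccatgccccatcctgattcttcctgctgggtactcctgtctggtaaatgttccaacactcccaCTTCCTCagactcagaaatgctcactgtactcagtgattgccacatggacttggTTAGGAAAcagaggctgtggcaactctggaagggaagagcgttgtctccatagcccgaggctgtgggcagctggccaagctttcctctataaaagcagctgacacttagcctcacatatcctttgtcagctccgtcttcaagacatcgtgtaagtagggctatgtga
S100a9, chr3:90695672-90695971, minus strand: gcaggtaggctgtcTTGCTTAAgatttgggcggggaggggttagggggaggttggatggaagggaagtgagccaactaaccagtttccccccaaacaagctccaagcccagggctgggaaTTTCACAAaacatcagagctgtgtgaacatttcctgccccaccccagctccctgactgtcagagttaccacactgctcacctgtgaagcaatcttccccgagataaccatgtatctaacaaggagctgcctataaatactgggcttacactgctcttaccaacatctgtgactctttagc
S100a4, chr3:90603520-90603819, plus strand: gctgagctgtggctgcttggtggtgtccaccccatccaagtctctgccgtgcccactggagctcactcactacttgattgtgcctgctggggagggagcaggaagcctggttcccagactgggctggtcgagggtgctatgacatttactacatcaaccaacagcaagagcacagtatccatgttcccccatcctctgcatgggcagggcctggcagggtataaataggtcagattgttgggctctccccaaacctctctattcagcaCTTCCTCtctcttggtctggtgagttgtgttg
S100a11, chr3:93520246-93520545, plus strand: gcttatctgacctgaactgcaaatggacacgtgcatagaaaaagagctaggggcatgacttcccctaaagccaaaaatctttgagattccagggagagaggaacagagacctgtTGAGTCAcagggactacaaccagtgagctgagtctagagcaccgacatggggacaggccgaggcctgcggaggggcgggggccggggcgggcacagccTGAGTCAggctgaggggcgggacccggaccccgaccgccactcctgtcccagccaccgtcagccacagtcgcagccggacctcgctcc

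C/EBP factors and PU.1 are transcription factors of the granulocyte and monocyte lineages, and AP-1 is activated by growth factor signalling. The C/EBP core was found in the window of S100a8, beginning 117 bases before its start, and at 236 and 130 bases before the start of S100a9, and in none of the other 5 member windows. It also occurred in 40.7% of all 32851 promoter windows. The PU.1 sequence lay 171 bases before the start of S100a8 and 18 bases after that of S100a4, against 13.6% of all windows holding it. AP-1 sequences lay 136 and 38 bases before the start of S100a11 and in no other member window, against 7.81% of all windows. The windows of S100a1 and S100a13 share 204 bases and held none of the 3 sequences. These matches are descriptions of letters and no binding was measured.

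Levels are given as FPKM, fragments counted on a gene, divided by transcript length and by the size of the library, as deposited by the authors. Differences were tested by limma on log2(FPKM + 1), each over the 6 libraries of its comparison, with Benjamini-Hochberg adjustment over the 13493 genes that had at least 1 FPKM in at least 3 libraries, and were called at an adjusted p under 0.05. The depth, estimated from the smallest steps of the FPKM values, ranged from 22400000 to 35300000 fragments per library. All 8 members passed the filter on low values, but S100a8 and S100a9 did so through the 2 groups with the fusion gene. The comparisons share libraries pairwise and are not independent of each other. In bulk RNA, fewer cells of a type and less RNA per cell cannot be told apart. NRASG12D cells have been described as mostly mast cells, and 9 of the 10 mast cell markers listed were at 1 FPKM or more in every one of their libraries, all but Cpa3.

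Of the 8 members, S100a8 and S100a9 separated the 3 groups most widely. S100a8 was listed at 0, 3.29 and 0.249 FPKM in replicates 1 to 3 of NRASG12D cells, at 410.1, 265 and 300.2 FPKM in NUP98-NSD1 cells and at 1431, 2049 and 8629 FPKM in NUP98-NSD1+NRASG12D cells. S100a9 was listed at 0, 0.447 and 0 FPKM, then 181, 113 and 122 FPKM, and 527, 1091 and 4273 FPKM, in the same order. For both genes the groups did not overlap in any comparison, and the highest NUP98-NSD1 library lay below the lowest library with both transgenes.

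In replicate 3 of NUP98-NSD1+NRASG12D cells, S100a8 was the 4th and S100a9 the 8th most abundant transcript of the whole library by FPKM, and S100a8 ranked 37th and 20th in replicates 1 and 2. A value of 0 can be a failed estimate in these tables, since the mast cell gene Cpa3 was listed at 0 in all 3 NRASG12D libraries beside Cma1 at 12715 to 16008 FPKM. The level that 3 fragments give S100a8 was 0.175 to 0.276 FPKM in NRASG12D libraries, so the value of replicate 3 lay within the counting limit of that library while that of replicate 2 lay above it. This limit covers counting error only and was taken from the annotated length.

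**Figure D1:**
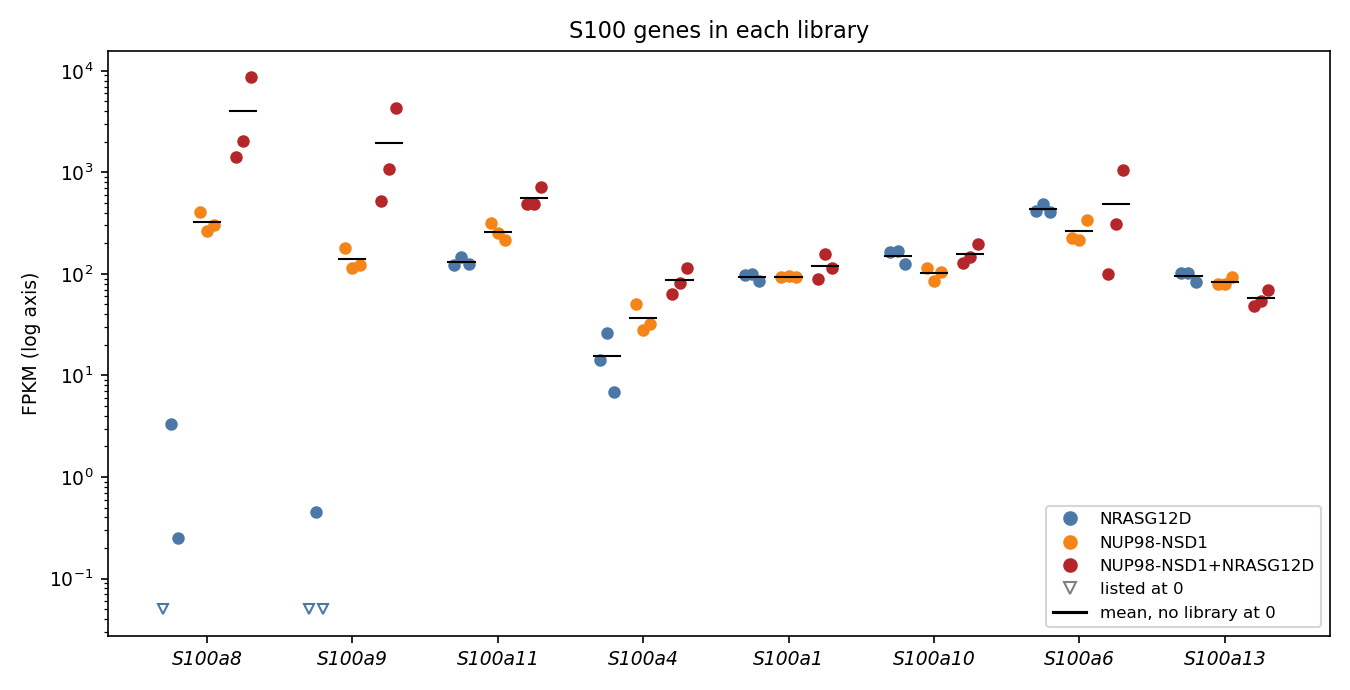
FPKM (log axis) of the 8 S100 genes in each of the 9 libraries, 3 points per group in the order of replicates 1 to 3, with a bar at the group mean where no library was at 0 and open triangles for libraries listed at 0. S100a8 and S100a9 climb from at most 3.29 FPKM in NRASG12D cells to 527 FPKM or more in NUP98-NSD1+NRASG12D cells, while S100a1, S100a10 and S100a13 stay between 48.7 and 198 FPKM throughout.

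Both calprotectin genes rose in each comparison. Against NRASG12D cells, the log2 fold change of S100a8 in NUP98-NSD1 cells was 7.52 (SE 0.51, adjusted p = 0.000183) and that of S100a9 was 6.92 (SE 0.22, adjusted p = 1.11e-05). With both transgenes, the log2 fold changes against NRASG12D alone were 10.71 (SE 0.79, adjusted p = 0.000171) for S100a8 and 10.22 (SE 0.69, adjusted p = 0.000135) for S100a9. No tested gene had a larger log2 fold change than S100a8 in that comparison, although folds against values near 0 depend on the number added before the logarithm and were 12.55 and 12.90 when 0.1 was added in place of 1. In NUP98-NSD1 against NRASG12D cells the same step moved S100a8 to 9.35 and S100a9 to 9.59, which turned their order, while both stayed called.

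With both transgenes S100a8 was higher than with the fusion gene alone, rising from 325 ± 75.8 to 4036 ± 3989 FPKM (SD, n = 3), a ratio of means of 12.4, and S100a9 from 139 ± 36.5 to 1964 ± 2020 FPKM (SD, n = 3), a ratio of means of 14.2. Replicate 3 of NUP98-NSD1+NRASG12D cells carried much of this, and without it the ratios of means were 5.35 and 5.83. The log2 fold changes were 3.20 (SE 0.65, adjusted p = 0.0312) and 3.30 (SE 0.71, adjusted p = 0.0371). Only 0.119% of tested genes had a larger log2 fold change than S100a8 in that comparison, and 0.104% a larger one than S100a9. Both calls lay near the threshold and were each lost in 4 of the 6 leave-one-out fits, with adjusted p up to 0.123 for S100a8 and 0.135 for S100a9, although every fit kept the direction, with log2 fold changes from 2.42 to 3.71 and from 2.47 to 3.98. The calls were lost without any of the 3 NUP98-NSD1 libraries or without NUP98-NSD1+NRASG12D replicate 2. Without any filter on low values the adjusted p was 0.139 for S100a8 and 0.156 for S100a9, and S100a9 also lost its call with median-ratio scaling (adjusted p = 0.0503).

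The balance of the calprotectin subunits was followed in both groups with the fusion gene. The S100a9 to S100a8 ratio was 0.440, 0.428 and 0.408 in NUP98-NSD1 libraries and 0.368, 0.532 and 0.495 in NUP98-NSD1+NRASG12D libraries. The latter spanned the former on both sides, and the difference of 0.11 on the log2 scale was not detectable (two-sided exact permutation test, p = 0.5, where 0.1 is the smallest p for 3 against 3). Of the NRASG12D libraries, only replicate 2 gave a ratio, 0.136.

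The make-up of the S100 transcripts shifted towards S100a8 and S100a9. The summed FPKM of the 8 genes was 915, 1028 and 835 in NRASG12D libraries, 1468, 1135 and 1303 in NUP98-NSD1 libraries and 2872, 4375 and 15163 in NUP98-NSD1+NRASG12D libraries. S100a8 and S100a9 held at most 0.364% of this sum in NRASG12D cells, 32.5% to 40.2% in NUP98-NSD1 cells and 68.2%, 71.8% and 85.1% in NUP98-NSD1+NRASG12D replicates 1 to 3. The other 6 members together came to 915, 1024 and 834 FPKM, then 877, 757 and 880 FPKM, and 914, 1235 and 2262 FPKM, so their sum overlapped between NRASG12D and each group with the fusion gene. In NRASG12D cells S100a6 was the most abundant member in every library, and S100a8 took that place in 2 of 3 NUP98-NSD1 libraries and in all 3 libraries with both transgenes.

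**Figure D2:**
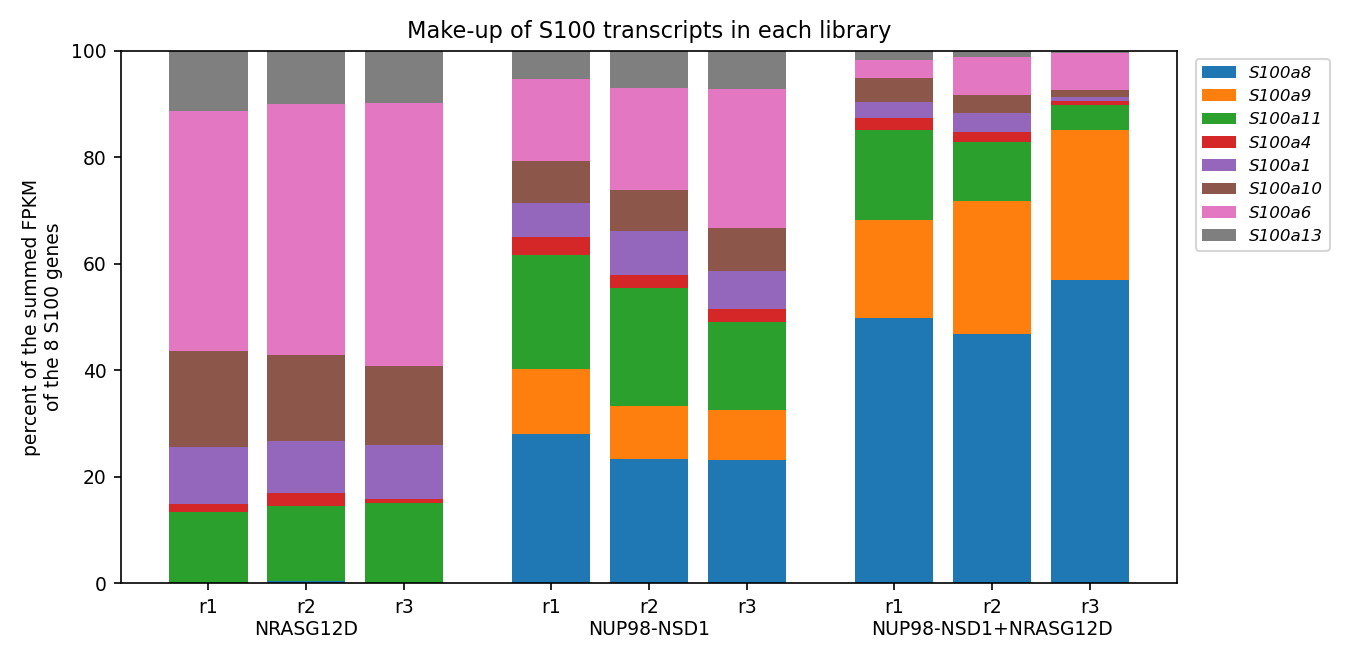
Percent of the summed FPKM of the 8 S100 genes held by each gene, 1 stacked bar per library, with r1 to r3 for the replicates of each group. The S100a8 and S100a9 segments together grow from at most 0.364% in NRASG12D cells to between 68.2% and 85.1% in NUP98-NSD1+NRASG12D cells.

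Most listed markers of neutrophils and of monocytes and macrophages were, like S100a8 and S100a9, higher with the fusion gene than with NRASG12D alone. The summed FPKM of 10 listed neutrophil genes, among them Ngp, Ltf, Camp and Lcn2, lay between 3.19 and 7.19 for NRASG12D, between 272 and 587 for NUP98-NSD1 and between 1016 and 3793 for NUP98-NSD1+NRASG12D libraries. Against NRASG12D cells 8 of the 10 were called higher in either group with the fusion gene and none lower. Of all tested genes, 42.2% were called higher with NUP98-NSD1 and 24.2% with NUP98-NSD1+NRASG12D. Between the groups with the fusion gene 4 of the 10 were called higher and 6 were not called. In that comparison 2.3% of all tested genes were higher and 6.31% lower. Of the 10, 8 were under 1 FPKM in every NRASG12D library, so they passed the filter on low values only through the other groups. Ltf, Camp and Retnlg were at 0 in all 3 NRASG12D libraries. For 10 monocyte and macrophage genes the sums were 66.0 to 73.0, 549 to 986 and 1910 to 4957, in the same order. Ly6c2 carried much of them, and without it, a choice made after seeing the values, they were 65.5 to 71.9, 284 to 375 and 565 to 1652 FPKM. Of these 10 genes, 4 were under 1 FPKM in every NRASG12D library, so those passed the filter only through the other groups. Of all 10, 9 were called higher in either group with the fusion gene than in NRASG12D cells, beside the same 42.2% and 24.2%. Between the groups with the fusion gene 4 were called higher, 1 lower and 5 not called, beside the same 2.3% and 6.31%. Cx3cr1, a chemokine receptor on the same list, went the other way and was lower with both transgenes than with NRASG12D (log2 fold change -2.15, adjusted p = 0.00200) or with the fusion gene alone (-1.65, adjusted p = 0.0136).

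Mast cell genes took another course. Their 10 listed genes summed to between 29946 and 32656 FPKM for NRASG12D, between 26432 and 31383 for NUP98-NSD1 and between 738 and 4313 for NUP98-NSD1+NRASG12D libraries. The first and second of these ranges are not comparable, because Cpa3 was at 12564 to 14379 FPKM in NUP98-NSD1 libraries but listed at 0 in NRASG12D libraries, where the 0 may be a failed estimate. Without Cpa3, a choice also made after seeing the values, the sums were 29946 to 32656, 13272 to 17004 and 458 to 2492 FPKM, and no groups overlapped. In NUP98-NSD1 against NRASG12D cells Kit, Ms4a2, Tpsb2, Cma1 and Mitf were called lower and Hdc, besides Cpa3, higher. Of all tested genes 9.98% were called lower there and 42.2% higher. With both transgenes 8 of the 10 were called lower than in NRASG12D cells and 2 higher, beside 14.1% and 24.2% of all tested genes. Against NUP98-NSD1 cells 7 were called lower, none higher and 3 not called, beside 6.31% lower and 2.3% higher. NUP98-NSD1 libraries held S100a8 and S100a9 beside mast cell transcripts that were abundant, though lower in sum than in NRASG12D libraries once Cpa3 was left out. Bulk RNA does not tell whether the same cells made both.

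The sums of the 4 basophil genes listed were 453 to 492, 886 to 1635 and 54.5 to 511 FPKM in the same order of groups, those of 4 eosinophil genes 0.182 to 0.758, 7.57 to 36.3 and 5.31 to 220.4, those of 4 erythroid genes 1.78 to 4.24, 26.2 to 63.2 and 3.55 to 37.5, and those of 4 megakaryocyte genes 479 to 563, 241 to 299 and 75.7 to 1210 FPKM. In NUP98-NSD1 against NRASG12D cells, the basophil list had 2 genes called higher and 2 lower, and the megakaryocyte list 2 higher and 1 lower of 3 tested. All 3 tested genes of the eosinophil list and all 3 of the erythroid list were called higher. Of all tested genes 42.2% were called higher there and 9.98% lower. In every NRASG12D library all 4 eosinophil genes and 3 of the 4 erythroid genes were under 1 FPKM. Those of them that were tested passed the filter on low values only through the other groups. Fibroblast genes, as well as B and T cell genes, were each under 1 FPKM in every library. The part of the cell types in the S100 differences was not tested.

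Of the broadly expressed members, S100a11 and S100a4 rose in the same stepwise order. S100a11, calgizzarin, binds annexins and takes part in membrane repair. It stood at 122, 145 and 125 FPKM in NRASG12D, 315, 251 and 215 FPKM in NUP98-NSD1 and 487, 484 and 717 FPKM in NUP98-NSD1+NRASG12D libraries, and no 2 groups overlapped. The log2 fold change was 0.98 (SE 0.15, adjusted p = 0.00257) for NUP98-NSD1 and 2.08 (SE 0.21, adjusted p = 0.000504) for NUP98-NSD1+NRASG12D cells, both against NRASG12D cells. With both transgenes against the fusion gene alone it was 1.10 (SE 0.25, adjusted p = 0.0407), a call that was kept only without NUP98-NSD1+NRASG12D replicate 1 among the 6 fits that omit a library (adjusted p up to 0.169) and was lost without any filter on low values (adjusted p = 0.143).

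S100a11 shares 41.1% of its 50-base stretches with transcripts of the processed pseudogenes Gm12854, Gm29240 and Gm7665, so its fragments may be split among them. Gm12854 was listed between 43.4 and 59.4 FPKM for NRASG12D, 82.9 and 119 FPKM for NUP98-NSD1, and 180.1 and 281 FPKM for NUP98-NSD1+NRASG12D libraries, in the same order of groups as S100a11. With the 4 genes summed, the log2 fold changes of S100a11 were 0.97, 2.07 and 1.10 in the order given, and all 3 remained called.

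S100a4, also known as metastasin, binds non-muscle myosin and is linked to cell motility. Its levels were 14.2, 25.9 and 6.91 FPKM in NRASG12D, 50.0, 27.9 and 31.8 FPKM in NUP98-NSD1 and 62.8, 81.8 and 115 FPKM in NUP98-NSD1+NRASG12D libraries. The groups did not overlap, though NRASG12D replicate 2 came close to the lowest NUP98-NSD1 library. The log2 fold change was 1.30 (SE 0.43, adjusted p = 0.0392) in NUP98-NSD1 and 2.52 (SE 0.45, adjusted p = 0.00513) in NUP98-NSD1+NRASG12D cells, against NRASG12D cells. The first of these calls was kept only without NRASG12D replicate 2 among the 6 fits that omit a library (adjusted p up to 0.121), and adjusted p was 0.0908 after median-ratio scaling. This call was also lost without any filter on low values (adjusted p = 0.154). Between the groups with the fusion gene, a log2 fold change of 1.22 (SE 0.30, adjusted p = 0.0517) missed the threshold, which it passed without NUP98-NSD1+NRASG12D replicate 1 (adjusted p = 0.0280). S100a4 shares 47.4% of its 50-base stretches with the overlapping gene Gm42674, which was listed at no more than 0.10 FPKM.

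S100a6, calcyclin, which binds calcyclin-binding protein, varied more than any other member among the NUP98-NSD1+NRASG12D replicates. It stood at 414, 485 and 411 FPKM in NRASG12D and at 226, 218 and 341 FPKM in NUP98-NSD1 libraries, and these groups did not overlap. In NUP98-NSD1 cells its level was lower, the log2 fold change being -0.76 (SE 0.18, adjusted p = 0.0112), a call kept in all 6 fits without a library. The call was lost without any filter on low values (adjusted p = 0.0541) and when all 9 libraries entered a single fit (adjusted p = 0.412). In NUP98-NSD1+NRASG12D cells S100a6 stood at 99.2, 310.3 and 1048 FPKM, a range that enclosed both other groups. Neither comparison with that group was called. The log2 fold change was -0.45 (SE 0.76, adjusted p = 0.661) against NRASG12D and 0.32 (SE 0.78, adjusted p = 0.882) against NUP98-NSD1 cells. These values moved with replicates 1 and 3 of the double-transduced group. Without replicate 1 the values were 0.39 and 1.15, and without replicate 3 they were -1.31 and -0.54.

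S100a10, also called p11, binds annexin A2 and helps to assemble plasminogen at the cell surface, and unlike its relatives it does not need calcium. Its levels were 165, 166 and 124 FPKM in NRASG12D, 115, 85.9 and 105 FPKM in NUP98-NSD1 and 127, 148 and 198 FPKM in NUP98-NSD1+NRASG12D libraries. NUP98-NSD1 cells had less of it than NRASG12D cells, the log2 fold change being -0.57 (SE 0.15, adjusted p = 0.0190). This call was lost without NRASG12D replicate 1 or 2 or NUP98-NSD1 replicate 2 (adjusted p up to 0.0659). It was also lost without any filter on low values (adjusted p = 0.0784) and with all 9 libraries in a single fit (adjusted p = 0.0680). The log2 fold change of NUP98-NSD1+NRASG12D cells was 0.04 (SE 0.22, adjusted p = 0.886) against NRASG12D, with a negative sign under both other scalings, and 0.61 (SE 0.22, adjusted p = 0.137) against NUP98-NSD1 cells.

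The head-to-head neighbours S100a1 and S100a13 were at nearly equal levels in NRASG12D cells. S100a13, which helps to export growth factors lacking a signal peptide, stood at 103, 103 and 82.5 FPKM in NRASG12D, 78.9, 79.5 and 93.8 FPKM in NUP98-NSD1 and 48.7, 54.2 and 70.2 FPKM in NUP98-NSD1+NRASG12D libraries. Double-transduced cells had less of it than NRASG12D cells, the log2 fold change being -0.74 (SE 0.19, adjusted p = 0.0215), a call lost without NRASG12D replicate 1 or 2 (adjusted p up to 0.0896). Without any filter on low values the call was also lost (adjusted p = 0.0631). Against NUP98-NSD1 cells the double-transduced libraries did not overlap either, but the log2 fold change of -0.55 (SE 0.18, adjusted p = 0.122) was not called.

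S100a1, best known from heart muscle, where it tunes calcium handling, stood at 97.5, 99.1 and 85.2 FPKM in NRASG12D, 92.2, 95.0 and 93.6 FPKM in NUP98-NSD1 and 88.9, 158 and 114 FPKM in NUP98-NSD1+NRASG12D libraries. All groups overlapped and no comparison was called, with adjusted p of 0.987, 0.296 and 0.468. The S100a13 to S100a1 ratio was 1.06, 1.04 and 0.968 in NRASG12D, 0.856, 0.836 and 1.00 in NUP98-NSD1 and 0.548, 0.344 and 0.617 in NUP98-NSD1+NRASG12D libraries. The ratios of the double-transduced libraries lay below all others.

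**Figure D3:**
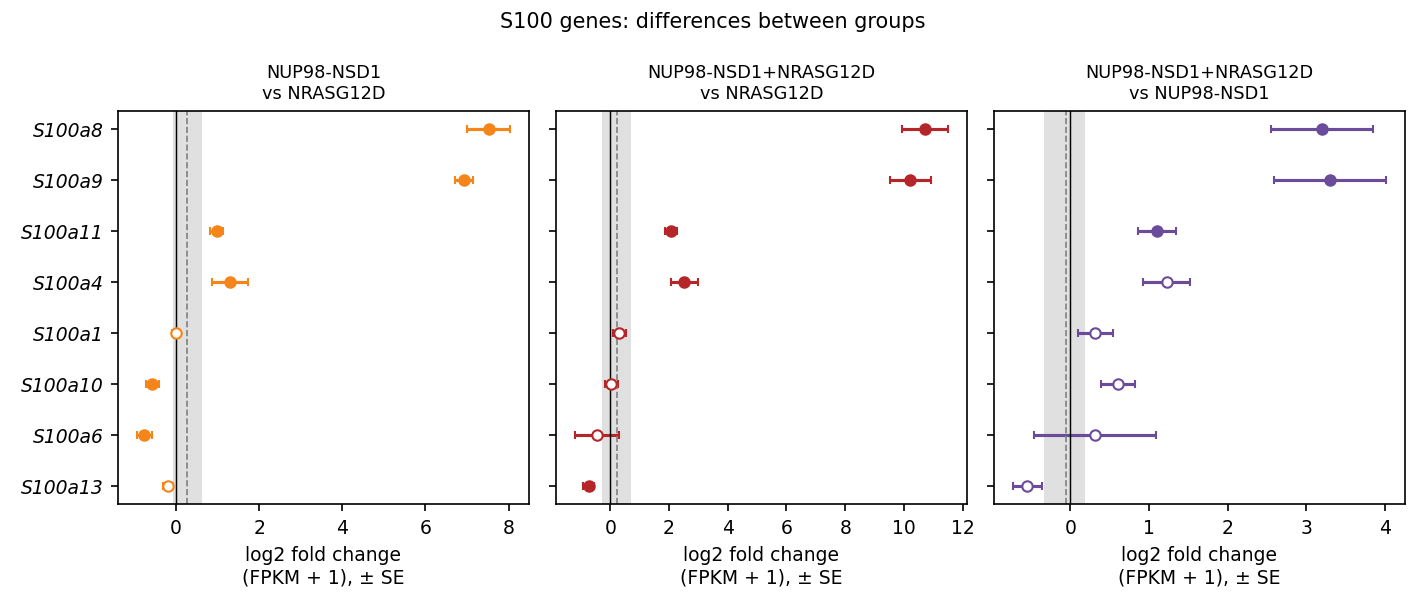
Log2 fold changes of FPKM + 1 for the 8 S100 genes in the 3 comparisons, with bars of 1 standard error and filled points for an adjusted p under 0.05; each panel has its own scale. The grey band spans the interquartile range of all tested genes and the dashed line is their median. S100a8 and S100a9 lie far to the right of the band in every panel, S100a11 and S100a4 more moderately so, and S100a13 lies at or to the left of its edge.

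Counted over the members, NUP98-NSD1 cells differed from NRASG12D cells in 6 of 8 genes, 4 higher and 2 lower. In that comparison 52.1% of all tested genes were called, 42.2% higher and 9.98% lower. By groups that did not overlap there were also 6 members, 4 higher and 2 lower, against 64.2% of tested genes, 50.7% higher and 13.5% lower. NUP98-NSD1+NRASG12D cells differed from NRASG12D cells in 5 members, 4 higher and 1 lower, where 38.3% of all tested genes were called, 24.2% higher and 14.1% lower. In 5 members, 4 higher and 1 lower, these groups did not overlap, against 58.6% of tested genes, 38.7% higher and 19.9% lower. When NRASG12D was added to the fusion gene, 3 members were higher and 5 were not called, where 8.61% of all tested genes were called, 2.3% higher and 6.31% lower. The groups of that comparison did not overlap in 6 members, 5 higher and 1 lower, against 31.4% of tested genes, 11.6% higher and 19.8% lower.

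On the log2 scale, the median difference of the members was 0.49 for NUP98-NSD1 against NRASG12D, 1.20 for NUP98-NSD1+NRASG12D against NRASG12D and 0.86 for NUP98-NSD1+NRASG12D against NUP98-NSD1 cells. Over all tested genes the medians were 0.27, 0.23 and -0.06. Scaling the libraries by median ratios moved these medians to 0.01, 0.06 and 0.04, and with them the smaller differences of the members. Relative to the median of all genes, S100a1 stood at -0.27, S100a13 at -0.46, S100a10 at -0.84 and S100a6 at -1.04 in NUP98-NSD1 against NRASG12D cells. After median-ratio scaling S100a1 and S100a13 were also called lower there (adjusted p = 0.0158 and 0.0198), which changed the member counts to 3 higher and 4 lower. The share of higher genes among all calls went from 80.9% to 52.3% with that scaling and to 43.2% with quantile normalization, and in NUP98-NSD1+NRASG12D against NRASG12D cells from 63.1% to 53.1% and 41.3%.

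Levels of S100a4, S100a8, S100a9 and S100a11 rose from NRASG12D through NUP98-NSD1 to NUP98-NSD1+NRASG12D cells without overlap at either step. No member fell in this way, against 6.84% of tested genes.

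Within the NUP98-NSD1+NRASG12D group the replicates differed strongly for some members. From the lowest to the highest library, S100a6 differed 10.6-fold, S100a9 8.11-fold and S100a8 6.03-fold, and on the log2(FPKM + 1) scale 0.912%, 1.41% and 2.41% of tested genes had a wider range. The other 5 members differed between 1.44-fold and 1.84-fold. Replicate 3 had the highest level of 7 members, all but S100a1, whereas 20.6% of tested genes were highest in that library. The summed neutrophil markers of that group were 1016, 2834 and 3793 FPKM and the summed monocyte and macrophage markers 1910, 3036 and 4957 FPKM in replicates 1 to 3, both also highest in replicate 3, but without Ly6c2 the latter were 565, 1652 and 1283 FPKM and highest in replicate 2. Their part in the spread of the S100 genes was not tested.

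Pairs of members differed in how alike their levels were over the 9 libraries, which share groups and are not independent. The Pearson correlation of log2(FPKM + 1) was 0.995 for S100a8 with S100a9, 0.957 for S100a8 with S100a11 and 0.925 for S100a8 with S100a4. It was -0.135 for S100a8 with S100a6, -0.0446 for S100a8 with S100a10 and -0.701 for S100a8 with S100a13. Outside the family, the closest genes to S100a9 were Lcn2, an iron-sequestering granule protein of neutrophils (r = 0.998), Aldh3b1 (r = 0.996) and F7 (r = 0.995), and those to S100a8 were Wfdc21 (r = 0.995), Clec5a (r = 0.993) and Actn1 (r = 0.993).

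Such correlations were common for some members and rare for others. Over 0.9 were 1190 genes for S100a8, 1170 for S100a9, 1281 for S100a11 and 509 for S100a4, but 199 for S100a13, 84 for S100a1, 59 for S100a6 and 4 for S100a10. S100a11 was closest to Hpcal1 (r = 0.999), its pseudogene Gm12854 (r = 0.998) and Nkiras2 (r = 0.997). S100a4 was closest to Lst1 (r = 0.985), Cd52 (r = 0.976) and Adam15 (r = 0.975), and S100a6 to Myo1d (r = 0.995), Card19 (r = 0.986) and Dusp6 (r = 0.979), a phosphatase that acts on ERK. For S100a1 the closest were Pgf (r = 0.979), Gas6 (r = 0.973) and Lgals8 (r = 0.968), for S100a13 Zfp52 (r = 0.983), Herc3 (r = 0.982) and Clic1 (r = 0.981), and for S100a10 Piwil2 (r = 0.932), Cdc42 (r = 0.925) and Bod1l (r = 0.914).

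Of the other S100 genes of the mouse that were listed, 9 of 10 names were found and only S100a5 passed the filter. S100a5 had 1.00 ± 0.715 FPKM in NRASG12D, 1.13 ± 0.657 FPKM in NUP98-NSD1 and 1.35 ± 0.0993 FPKM in NUP98-NSD1+NRASG12D cells (SD, n = 3) and was called in no comparison by limma (unadjusted p of 0.73, 0.324 and 0.472). The remaining 8 stayed at or below 0.328 FPKM in every library. S100z was listed at 0 in all 9 libraries.

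Known receptors and partners of S100 proteins were examined as a list of 28 genes, of which 20 were tested. In NUP98-NSD1 against NRASG12D cells 12 were higher, 5 lower and 3 not called, where 42.2% of all tested genes were higher and 9.98% lower. In NUP98-NSD1+NRASG12D against NRASG12D cells 8 were higher and 12 not called, beside 24.2% higher and 14.1% lower among all genes. Against NUP98-NSD1 cells, the NUP98-NSD1+NRASG12D cells had 2 higher, Cd14 and Anxa2, and 18 not called, beside 2.3% higher and 6.31% lower among all genes. After median-ratio scaling the counts of the first comparison were 9 higher and 8 lower, and after quantile normalization 7 and 7. The medians of the list were 0.41, 0.47 and 0.38 on the log2 scale, beside 0.27, 0.23 and -0.06 for all tested genes. Cd14, Cd36 and Fpr1 were under 1 FPKM in every NRASG12D library and passed the filter on low values only through the other groups.

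Among the receptors, Tlr4, the Toll-like receptor that senses calprotectin, had 8.15, 7.0 and 7.42 FPKM in NRASG12D, 15.6, 14.1 and 9.82 FPKM in NUP98-NSD1 and 18.3, 41.7 and 28.2 FPKM in NUP98-NSD1+NRASG12D libraries. It rose against NRASG12D cells by 0.71 (SE 0.17, adjusted p = 0.0115) and by 1.76 (SE 0.29, adjusted p = 0.00350) on the log2 scale, and its difference between the groups with the fusion gene was 1.05 (SE 0.32, adjusted p = 0.0923). The first of these calls was lost after quantile normalization (adjusted p = 0.0825). Cd14, the co-receptor that hands ligands to Tlr4, was at most 0.688 FPKM with NRASG12D alone, reached 18.4, 17.1 and 9.36 FPKM in NUP98-NSD1 libraries and 42.2, 81.0 and 238 FPKM in NUP98-NSD1+NRASG12D libraries. Its log2 fold changes were 3.55 (adjusted p = 0.000309), 6.17 (adjusted p = 0.000395) and, between the groups with the fusion gene, 2.62 (adjusted p = 0.0446). The last of these calls was lost after median-ratio scaling (adjusted p = 0.0581). Cd14 is also a monocyte marker of the list above. Ly96, which encodes the part of the receptor complex that binds the ligand, fell from NRASG12D to NUP98-NSD1 cells (log2 fold change -0.41, adjusted p = 0.0166). Ager, the receptor for advanced glycation end products and another S100 receptor, was at or below 0.470 FPKM in every library and was not tested.

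Of the 6 other receptors tested, Fpr1 and Scarb1 were called higher in both groups with the fusion gene. Fpr1, a chemoattractant receptor of neutrophils, rose by 2.17 (adjusted p = 0.00257) in NUP98-NSD1 and by 3.68 (adjusted p = 0.000242) in NUP98-NSD1+NRASG12D cells on the log2 scale, and Scarb1, a lipoprotein receptor, by 1.19 (adjusted p = 0.00297) and 1.87 (adjusted p = 0.000987). Myd88, the adaptor of Toll-like receptors, rose by 0.37 (adjusted p = 0.0133), Bsg, a membrane glycoprotein that binds S100a9, by 0.33 (adjusted p = 0.0138) and the scavenger receptor Cd36 by 1.05 (adjusted p = 0.00934) in NUP98-NSD1 cells, and none of these was called in NUP98-NSD1+NRASG12D cells. The calls of Myd88 and Bsg were lost under both other scalings and that of Cd36 after quantile normalization (adjusted p = 0.138). In NRASG12D libraries Fpr1 was at most 0.0460 FPKM and Cd36 at most 0.0490 FPKM. Cd33, a sialic acid-binding receptor, fell by 0.63 in NUP98-NSD1 cells (adjusted p = 0.00345).

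The annexins differed among themselves. Anxa2, the partner of S100a10, was at 10.4, 12.7 and 12.8 FPKM in NRASG12D, 247, 145 and 104 FPKM in NUP98-NSD1 and 590.1, 633 and 1037 FPKM in NUP98-NSD1+NRASG12D libraries. Its log2 fold changes were 3.60 (SE 0.29, adjusted p = 0.000323) and 5.82 (SE 0.24, adjusted p = 3.37e-05) against NRASG12D cells and 2.22 (SE 0.37, adjusted p = 0.0179) between the groups with the fusion gene. The Anxa2 to S100a10 ratio of FPKM ran from 0.0630 to 0.104 in NRASG12D libraries, was 2.15, 1.69 and 0.995 in NUP98-NSD1 libraries and lay between 4.29 and 5.24 in NUP98-NSD1+NRASG12D libraries. Anxa1, a partner of S100a11, rose by 1.38 (adjusted p = 0.00159) and 2.37 (adjusted p = 0.00353) on the log2 scale. Anxa6 and Anxa11, which bind S100a6, fell by 0.32 and 0.30 in NUP98-NSD1 cells (adjusted p = 0.0172 and 0.0251), and Anxa5 was called in no comparison with the FPKM as deposited, but was called lower in NUP98-NSD1 cells under both other scalings (adjusted p = 0.00592 and 0.0119).

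Among the other partners, Plaur, the urokinase receptor, rose by 1.77 (adjusted p = 0.00158) and 3.56 (adjusted p = 0.00292) against NRASG12D cells. Cacybp, the calcyclin-binding protein bound by S100a6, rose by 1.15 (adjusted p = 0.00222) and 1.34 (adjusted p = 0.0132), while S100a6 was lower or not called in the same comparisons. Trp53, whose product several S100 proteins bind, rose by 0.44 (adjusted p = 0.0292) in NUP98-NSD1 cells, a call lost under both other scalings, and Ahnak, a giant scaffold bound by S100a10 with Anxa2, fell by 1.00 (adjusted p = 0.00997). Myh9, the heavy chain of the myosin bound by S100a4, and Sugt1, a co-chaperone that binds S100a6, were called in no comparison with the FPKM as deposited, and after median-ratio scaling both were called lower with NUP98-NSD1 than with NRASG12D (adjusted p = 0.0382 and 0.0493).

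**Figure D4:**
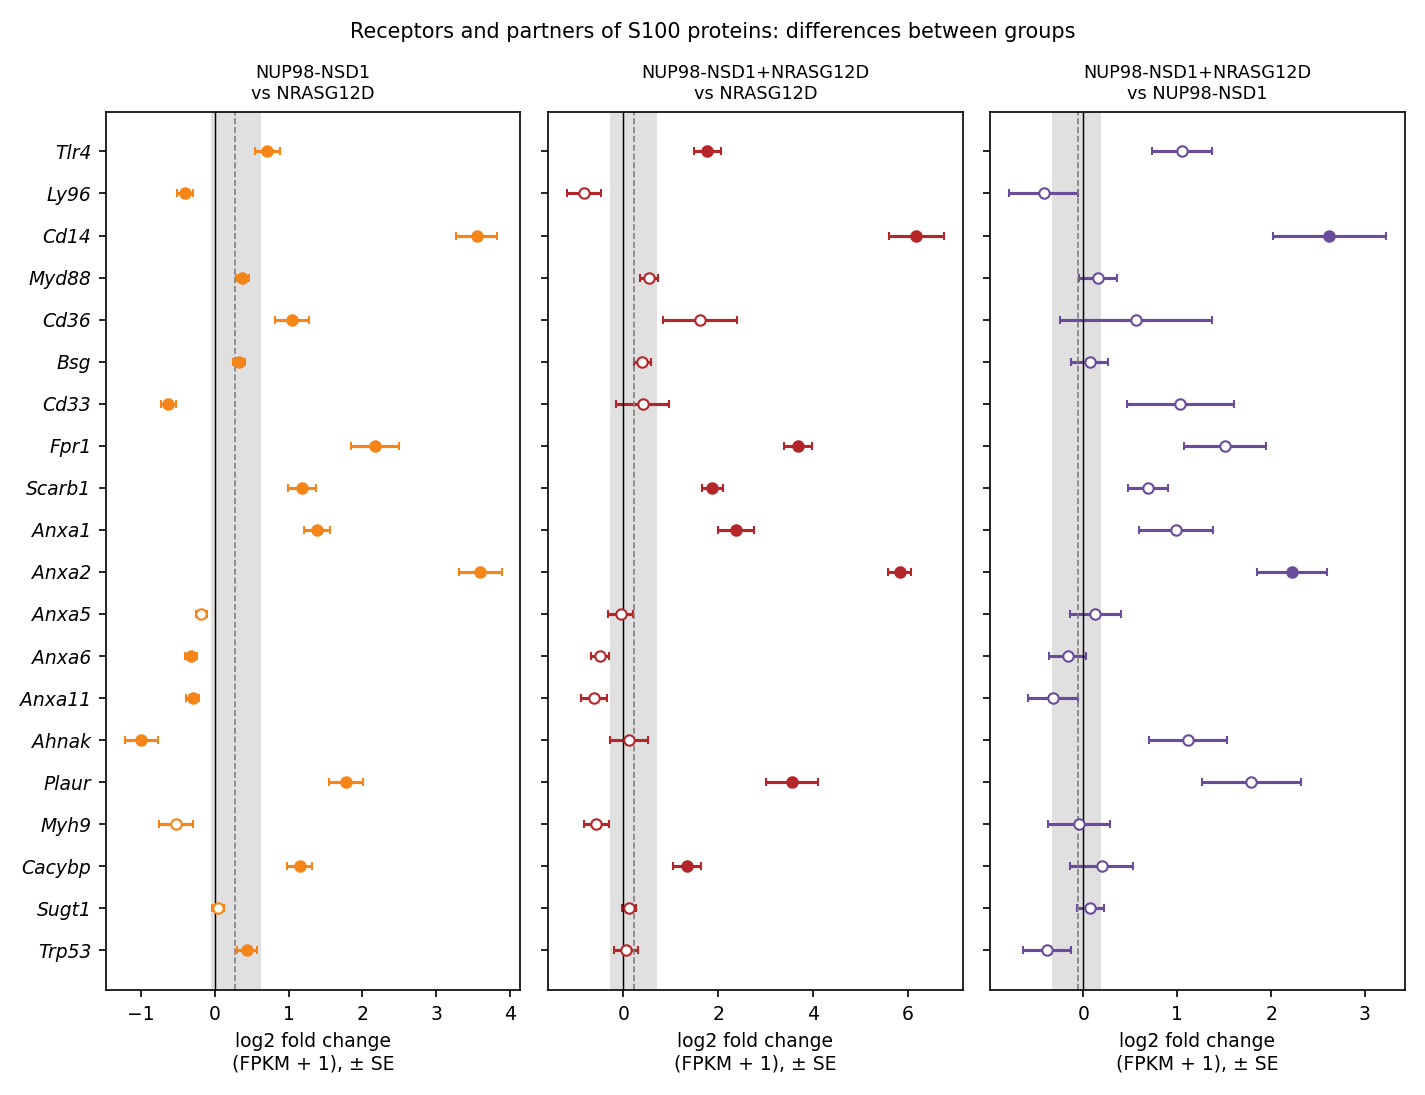
Log2 fold changes of FPKM + 1 for the 20 tested receptors and partners of S100 proteins, drawn as for the S100 genes, with bars of 1 standard error, filled points for an adjusted p under 0.05, a grey band for the interquartile range of all tested genes and a dashed line at their median. Cd14 and Anxa2 lie farthest to the right in all 3 panels, up to 6.17 and 5.82, and are the only filled points in the comparison of NUP98-NSD1+NRASG12D with NUP98-NSD1 cells.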

How the data were processed

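Gene tables of 9 libraries, 1 per sample, were used as deposited. Per the methods and labels, the authors sequenced paired-end 50 bp reads, aligned them with STAR (2.7.2a) to GRCm38.p6 with GENCODE M22 and quantified genes with Cufflinks (2.2.1). Transcript lengths for the depth estimate and the counting limit, and sequences for the 50-base stretches, came from the GENCODE release before M22. Deposited by the authors were FPKM, not counts, so the DESeq2 comparison named in the methods was not run. The handling of strand and of reads with several alignments is not given in the sources used here. FPKM of rows with the same identifier were summed.

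Values were compared as log2(FPKM + 1) with limma 3.58.1 (lmFit, eBayes with trend) in R 4.3.3, over the 6 libraries of each comparison, for the 13493 genes that reached 1 FPKM in 3 or more libraries. Benjamini-Hochberg adjustment covered all of them, and the threshold was 0.05. A pseudocount of 1 understates folds of low genes. Groups and replicate numbers came from the sample labels. The test was checked on simulated data with 200 changed genes. Changes of 1 on the log2 scale were recovered in 70.1% of genes for NUP98-NSD1 against NRASG12D. For NUP98-NSD1+NRASG12D the share was 46.3% against NRASG12D and 23.9% against NUP98-NSD1, so small differences were often missed in the simulation. False calls made up 4.28%, 7.98% and 6.02% of all simulated calls in the same order. Far fewer genes were changed in the simulation than were called in these data, which makes the adjustment stricter. The recovered shares may therefore understate those in the data. The depth was estimated from the FPKM steps of 3386 single-transcript genes longer than 2500 bp, on which 82.6% to 86.3% of low values lay within 0.1 of a whole step. Where simulated fragments were scaled by effective lengths, as Cufflinks does, the estimate came out slightly too low.

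Named were the 8 members, the other S100 genes and the called genes of a list of receptors and partners, neighbours that overlapped a member or separated all groups, and for each member the 3 most correlated genes. The members and lists were chosen with earlier results of these data known. Replicates sharing a number were not treated as pairs in the main test. Tables were handled with Python 3.11.15, pandas 2.3.3 and scipy 1.17.1. Alternatives were pseudocount, filter, scaling, model, block and left-out libraries, and, chosen after seeing the data, S100a11 summed with its pseudogenes and marker sums without Cpa3 or Ly6c2.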

Additional observations from a re-analysis of the deposited data

How the results depend on the processing

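S100a8, S100a9 and S100a11 were called higher than in NRASG12D cells under all 13 alternatives, in both groups with the fusion gene, and S100a4 in NUP98-NSD1+NRASG12D cells. Of 312 alternative values over the 8 members and 3 comparisons, 259 kept direction and side of the threshold, 38 lost a call, 5 gained a call and 10 changed sign. Without a filter on low values, which tests more genes, the members called fell from 6 to 3 in NUP98-NSD1 against NRASG12D and from 3 to 0 in NUP98-NSD1+NRASG12D against NUP98-NSD1 cells, where all tested genes called fell from 1162 to 152. With all 9 libraries in 1 fit, 3 members were called in the first of these, and the cause was not tested. Leaving out single libraries gave 4 to 5, 4 to 5 and 0 to 4 called members in the 3 comparisons. By estimated fragments in place of FPKM, S100a8 and S100a9 held 29.8% of the members' sum in NUP98-NSD1 cells instead of 35.3%. Signs changed only among uncalled values. S100a10 in NUP98-NSD1+NRASG12D against NRASG12D cells went to -0.15 with median-ratio scaling and -0.32 with quantile normalization, and S100a1 to -0.044 with the latter. Leaving out libraries, S100a1 ranged from -0.070 to 0.038 in NUP98-NSD1 against NRASG12D, S100a10 from -0.13 to 0.18 and S100a6 from -1.31 to 0.39 in NUP98-NSD1+NRASG12D against NRASG12D, and S100a6 from -0.54 to 1.15 in NUP98-NSD1+NRASG12D against NUP98-NSD1 cells.

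Replicate numbers recur across groups, and the deviations of same-numbered libraries from their group means had correlations from -0.177 to 0.160. Such values cannot tell whether these libraries share an origin, and the labels do not say. A replicate block gave 6, 4 and 2 called members, without S100a13 in NUP98-NSD1+NRASG12D against NRASG12D (adjusted p = 0.0544) and without S100a11 in NUP98-NSD1+NRASG12D against NUP98-NSD1 cells (adjusted p = 0.0961).

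The precision is limited by 3 libraries per group, by the wide spread within NUP98-NSD1+NRASG12D cells and by values near 0 in NRASG12D cells. No leave-one-out fit of the S100a9 to S100a8 ratio changed its sign, with differences from 0.0067 to 0.27 on the log2 scale, and a permutation of 2 against 3 libraries cannot reach the threshold.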
